A study of Mus musculus with 6 samples.

Results

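Genes for orphan and adhesion G protein-coupled receptors were compared between mouse prostate epithelial cancer cells that carried a PIM1 lentivirus (PIM1 cells, 3 arrays) and cells that carried the control lentivirus with an empty vector (EV cells, 3 arrays). The members were chosen by gene symbol and not by their values, though earlier results of these data were known. They were the genes with a probe set of 1 symbol made of Gpr and a number (64 genes, the orphan class) or of Adgr, a letter and a number (24 genes, the adhesion class). Together these are 88 of the 22180 genes tested. The 88 genes had 94 probe sets, and for the 5 genes with more than 1 the brightest was used. RefSeq lists 103 mouse symbols of these forms. Of the other 15, 6 had only probe sets shared with another gene, and 9 had no probe set annotated to them. Orphan is used here as a name for the symbol class, since ligands are known or proposed for several of its members.

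G protein-coupled receptors cross the membrane several times and pass a signal from outside the cell to heterotrimeric G proteins within. An orphan receptor is one whose natural ligand was not known when it was named. Adhesion receptors carry a long extracellular part that binds matrix or surface proteins of neighbouring cells, and most are cut near the membrane so that a tethered stretch of the receptor itself can switch it on. Receptor kinases, arrestins and RGS proteins dampen the signal.

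Cells of both groups came from Rb1F/F:Trp53F/F:PB-Cre4 mice, so both groups share the prostate-directed deletion of Rb1 and Trp53, driven by Cre under a probasin promoter. Both grew in DMEM with charcoal-stripped serum, insulin, transferrin, selenium, pituitary extract, epidermal growth factor and cholera toxin, which locks the stimulatory G protein in its active state. PIM1 is a serine/threonine kinase. The mouse Pim1 gene averaged 6.99 in PIM1 and 5.58 in EV (difference 1.41, limma adjusted p = 0.00455), and the labels do not say whether the transgene matches its probes. The groups were compared to find genes whose expression differs between PIM1-transduced and control cells. Nothing in the labels says that the 3 arrays of a group stand for separate cultures. The p-values therefore describe the spread among these samples, and that spread may be technical. Signals come from a whole-transcript array on a log2 scale, and differences are PIM1 minus EV. A gene is called higher or lower where limma's Benjamini-Hochberg adjusted p over all 22180 genes was under 0.05. Correlation between arrays was 0.994 to 0.997 within PIM1 and 0.990 to 0.991 within EV, against 0.963 to 0.967 between groups. Array medians were 3.38 to 3.42 in PIM1 and 3.49 to 3.52 in EV. Of 8 measured epithelial markers 0 were higher and 3 lower in PIM1 (37.5% called, beside 27.0% over all genes). Epcam, a surface protein of epithelia, had mean signals of 2.35 in PIM1 and 2.50 in EV, below the array medians in both groups. Of 12 fibroblast markers 10 were called higher and 1 lower (91.7%). Of 7 measured neural and glial markers 0 were higher and 2 lower (28.6%), Gfap (-0.39) and Rbfox3 (-0.54). The fibroblast markers summed to log2 levels of 13.53 to 13.60 on PIM1 arrays and 11.44 to 11.47 on EV arrays. The epithelial markers summed to 6.79 to 6.80 on PIM1 arrays and 9.36 to 9.43 on EV arrays. Krt18, a keratin of simple epithelia, carried most of that gap, with mean signals of 4.89 in PIM1 and 9.14 in EV. The other 7 epithelial markers summed to 6.30 to 6.39 on PIM1 arrays and 6.63 to 6.93 on EV arrays, and of these Cdh1 and Krt19 were called lower. The part of these marker shifts in the receptor differences was not tested. In RNA from whole cultures fewer cells of a type and less RNA per cell cannot be told apart.

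In PIM1 cells the orphan receptor gene Gpr149 was 39.8-fold lower, the adhesion receptor gene Adgrf1 was higher by 3.61 on the log2 scale, and most of the other receptor genes were dim and differed little. In the orphan class 8 genes were called higher and 7 lower, 15 of 64 (23.4%). In the adhesion class 3 were called higher and 7 lower, 10 of 24 (41.7%). Over all genes 27.0% were called, 16.1% higher and 10.9% lower, so the orphan share lay near the background and the adhesion share above it, a difference that was not tested. The median difference was -0.10 in the orphan class and -0.12 in the adhesion class, beside -0.05 over all genes. A called difference of at least 1 on the log2 scale, which is 2-fold, was found for 4 of 64 orphan and 6 of 24 adhesion receptor genes. Over all genes it was found for 1388 of 22180 (6.26%). The orphan share was thus near that of all genes and the adhesion share above it, which was not tested. The groups did not overlap for 20 orphan genes (31.2%) and 15 adhesion genes (62.5%), against 43.2% of all genes. Of the 88 members 11 were called higher and 14 lower, so 44.0% of the calls were higher. With quantile normalization, with arrays centred on their medians, and with cyclic loess, 12 members were higher and 10 lower in each case (54.5% higher). Over all genes 3575 were called higher and 2420 lower in the main comparison, and this split was not taken in the other settings. Calls over all genes numbered 5995 in the main comparison and 5519, 5882 and 5547 with these scalings. The orphan class had 3 lower calls without PIM1 replicate 1 and 4 without EV replicate 1. Over all genes 4248 were called without PIM1 replicate 1 and 5358 without EV replicate 1.

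**Figure D1:**
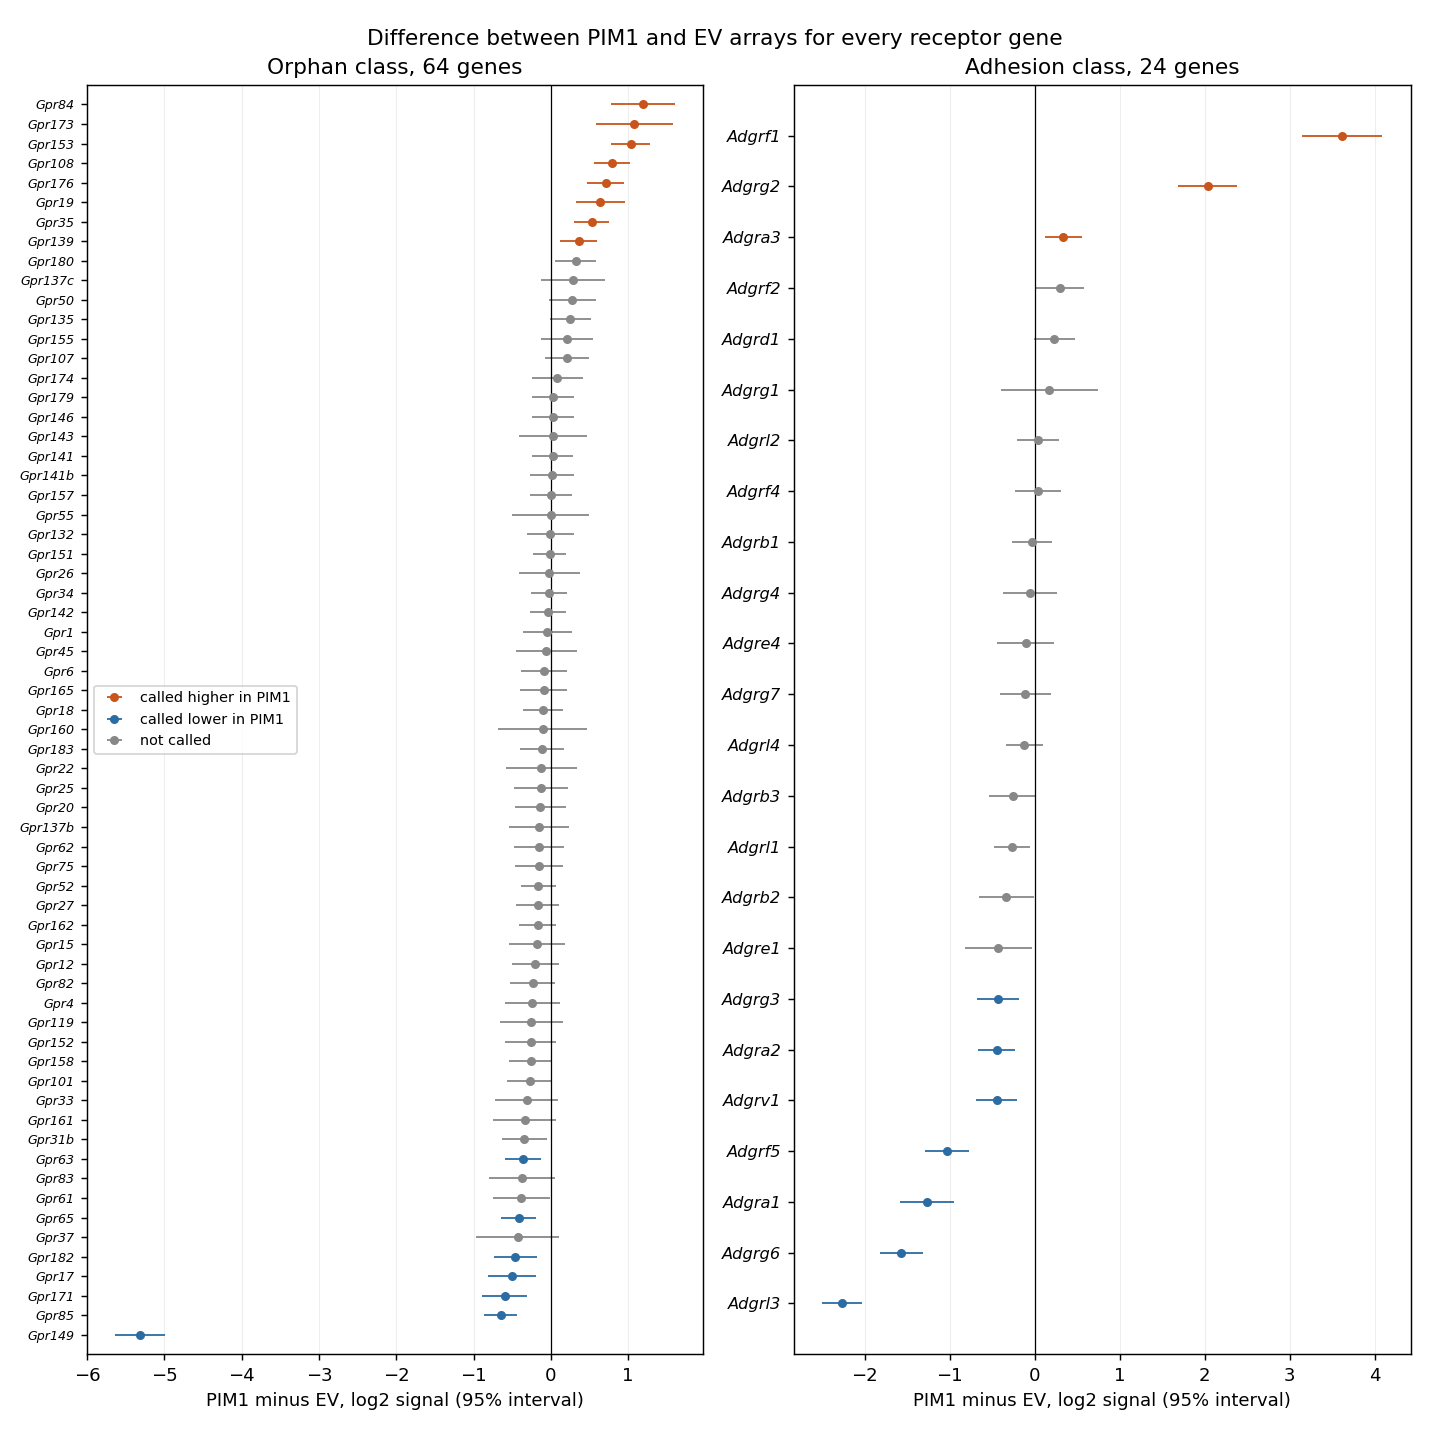
Difference in log2 signal between PIM1 and EV arrays (horizontal axis, PIM1 minus EV) for each of the 64 orphan and 24 adhesion receptor genes (vertical axis). Points are limma estimates from 3 arrays per group and bars are 95% intervals. Gpr149 lies at -5.32 and Adgrf1 at 3.61, and the differences that were not called lie between -0.43 and 0.32.

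Calls were more frequent among brighter members. Of the 88 genes 62 (70.5%) had a mean signal below that of the median gene (4.005). Of these 62 dimmer members 11 were called (17.7%), against 10.0% of the dimmer genes in the whole table. Of the 26 brighter members 14 were called (53.8%), against 44.0% of the brighter genes. The classes differed here, with 6 of 16 brighter orphan genes and 8 of 10 brighter adhesion genes called. No detection call was used, so a low signal holds an unknown share of background and leaves little room for a fall. The brightest orphan members were Gpr176, Gpr149, Gpr108, Gpr180, Gpr137b and Gpr107. The brightest adhesion members were Adgrl2, Adgrg6, Adgra3, Adgrg2, Adgrl1 and Adgra2.

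**Figure D2:**
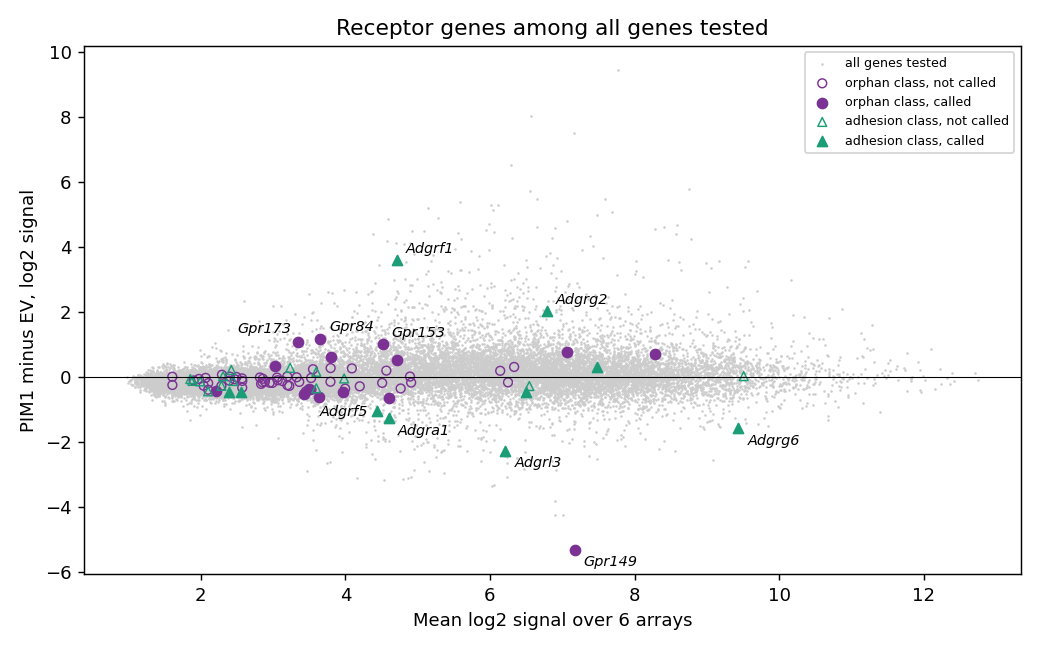
Difference in log2 signal (vertical axis, PIM1 minus EV) against the mean log2 signal over 6 arrays (horizontal axis) for all 22180 genes (grey), orphan members (circles) and adhesion members (triangles). Filled symbols are called, and names are given for called members that differed by at least 1. Gpr149 and Adgrf1 lie far from the other members.

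Gpr149, an orphan receptor whose loss raises fertility in female mice, read 4.22, 4.68 and 4.64 on the PIM1 arrays and 9.93, 9.75 and 9.80 on the EV arrays. Every EV array lay over 5 log2 units above every PIM1 array. The difference was -5.32 (standard error 0.14, adjusted p = 2.63e-07), and on EV arrays Gpr149 was the brightest gene of the orphan class. Without each array in turn the Gpr149 difference ranged from -5.40 to -5.17. On the PIM1 arrays its mean of 4.51 still lay above the array medians. Gpr176, which couples to an inhibitory G protein and sets the pace of the brain's circadian clock, was the brightest orphan member on PIM1 arrays. It read 8.72, 8.70 and 8.50 on PIM1 arrays and 7.90, 7.87 and 8.02 on EV arrays. No PIM1 array overlapped an EV array, and the difference was 0.71 (adjusted p = 0.00167), a 1.63-fold rise.

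Receptors that sense lipids and metabolites were mostly dim. Gpr84, a receptor for medium-chain fatty acids on myeloid cells, read 4.27, 4.17 and 4.31 on PIM1 arrays and 3.31, 2.62 and 3.24 on EV arrays. The groups did not overlap, and EV replicate 2 read lowest. The Gpr84 difference was 1.20 (standard error 0.18, adjusted p = 0.00176), and its EV mean lay below the array medians. Gpr35, a receptor of gut and immune cells for which kynurenic acid is a proposed ligand, averaged 4.97 ± 0.11 in PIM1 and 4.45 ± 0.03 in EV (SD, n = 3 arrays each), a rise of 0.53 (limma adjusted p = 0.00543). Gpr55, Gpr119, Gpr18, Gpr34, Gpr174 and Gpr183 of this group were not called, with differences between -0.25 and 0.08. Leukocyte markers did not rise together: of 11 measured, 1 was higher and 1 lower (18.2% called, beside 27.0% over all genes). Ptprc, which marks leukocytes in general, had mean signals of 1.87 in PIM1 and 2.07 in EV. The summed leukocyte markers had log2 levels of 8.10 to 8.35 in PIM1 and 7.35 to 7.45 in EV, and the called members were Cd14 (2.20) and Csf1r (-1.35).

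Gpr183 guides immune cells along oxysterols that are made by Ch25h and Cyp7b1 and broken down by Hsd3b7. Gpr183 itself read 3.16, 3.14 and 2.92 on PIM1 arrays and 3.15, 3.36 and 3.04 on EV arrays. The groups overlapped at a low signal, and the difference was -0.11 (95% interval -0.40 to 0.17, adjusted p = 0.554). All 3 enzyme genes were called higher. Ch25h read 8.21, 8.20 and 8.43 on PIM1 arrays and 2.81, 2.57 and 3.27 on EV arrays, a difference of 5.40 (adjusted p = 6.14e-07). With the mean of its probe sets the Ch25h difference was 4.05. The EV mean of Ch25h, 2.88, lay below the EV array medians and was not shown to be above background. Cyp7b1 read 9.35, 9.58 and 9.74 on PIM1 arrays and 4.95, 5.19 and 5.47 on EV arrays, a difference of 4.35 (adjusted p = 1.11e-06). The Ch25h and Cyp7b1 groups lay far apart. Hsd3b7 averaged 5.18 in PIM1 and 4.55 in EV, and its rise of 0.63 (adjusted p = 0.0224) did not pass without PIM1 replicate 1 (0.57, adjusted p = 0.0826) or PIM1 replicate 2 (0.63, adjusted p = 0.0709), nor over all probe sets (adjusted p = 0.0544).

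Gpr173 and Gpr85, relatives within the orphan class, were called in opposite directions. Gpr27, Gpr85 and Gpr173 form a family of receptors that is highly conserved among vertebrates and known from brain. Gpr173 read 4.01, 3.74 and 3.92 on PIM1 arrays and 3.35, 2.49 and 2.58 on EV arrays, a rise of 1.08 (adjusted p = 0.00765). The EV mean of Gpr173, 2.81 (SD 0.47), lay below the EV array medians and was not shown to be above background. Gpr85 read 4.24, 4.25 and 4.35 on PIM1 arrays and 4.96, 4.92 and 4.91 on EV arrays, a difference of -0.65 (adjusted p = 0.00137). The groups did not overlap for either gene. Gpr27 averaged 4.43 in PIM1 and 4.59 in EV, and its groups overlapped (difference -0.17, adjusted p = 0.346). Gpr153 and Gpr162 are another pair of relatives. Gpr153 read 4.96, 5.00 and 5.12 on PIM1 arrays and 4.16, 3.91 and 3.92 on EV arrays, without overlap, a rise of 1.03 (adjusted p = 2.93e-04). Gpr162 was not called (-0.17, adjusted p = 0.279). Differences between relatives were not tested against each other.

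Gpr107 and Gpr108 are related proteins of the Golgi. Gpr108 read 7.42, 7.53 and 7.42 on PIM1 arrays and 6.65, 6.78 and 6.56 on EV arrays. PIM1 and EV arrays stood apart, and the rise was 0.79 (adjusted p = 8.11e-04). Gpr107 averaged 6.24 ± 0.05 in PIM1 and 6.04 ± 0.21 in EV (SD, n = 3 arrays each) and was not called (0.20, limma adjusted p = 0.270). Gpr137b, a lysosomal membrane protein, was not called (-0.15, adjusted p = 0.556). Gpr180 lay without overlap at 6.47 to 6.52 on PIM1 arrays and 5.97 to 6.28 on EV arrays, a difference of 0.32 that was not called (adjusted p = 0.0735). Gpr180 passed after median centring (0.42, adjusted p = 0.0259) and when only genes above the median gene were tested (adjusted p = 0.0305). Gpr155, a lysosomal cholesterol sensor, was not called, and its 3 probe sets differed by 0.21, -0.16 and -0.05.

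Further orphan members differed at low signals. Gpr19 read 4.12, 3.88 and 4.36 on PIM1 arrays and 3.38, 3.54 and 3.51 on EV arrays, a rise of 0.64 (adjusted p = 0.01). Its gene span overlaps that of Crebl2 in RefSeq, which rose by 0.56 (adjusted p = 0.00613). Gpr171, a receptor for the neuropeptide BigLEN, read 3.52, 3.13 and 3.36 on PIM1 arrays and 4.04, 3.85 and 3.90 on EV arrays, without overlap. Its difference of -0.59 (adjusted p = 0.00976) was not seen on its dimmer probe set, which had a difference of -0.001, and the mean of both probe sets was not called (-0.30, adjusted p = 0.0635). Of the proton-sensing receptors Gpr65, known from lymphoid cells, averaged 2.00 in PIM1 and 2.42 in EV (-0.41, adjusted p = 0.0163). Gpr4 (-0.24) and Gpr132 (-0.005) were not called. Gpr6 and Gpr12, which keep cyclic AMP high without added ligand, were not called (-0.09 and -0.20).

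**Figure D3:**
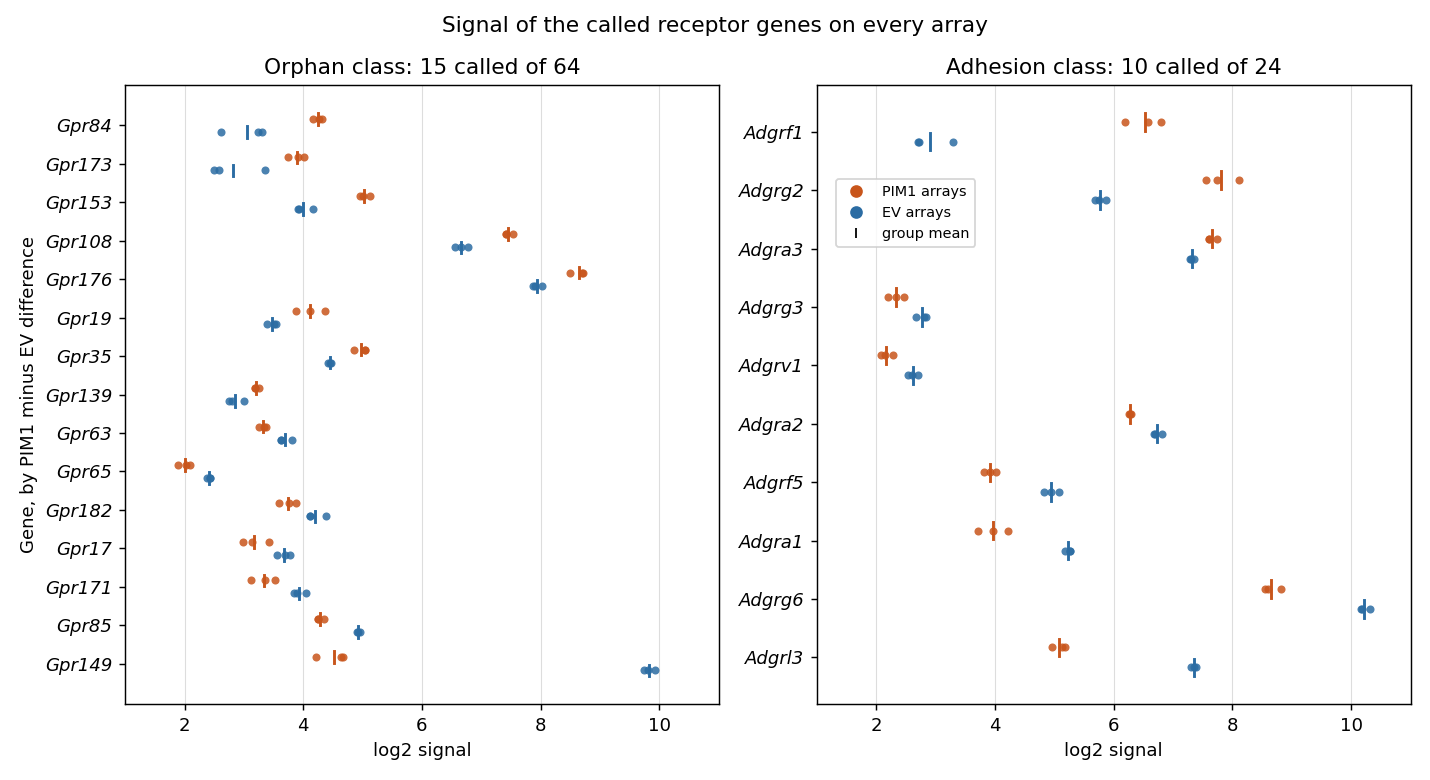
Log2 signal (horizontal axis) of the 15 called orphan and 10 called adhesion receptor genes (vertical axis) on each of 3 PIM1 arrays and 3 EV arrays, with the group mean as a vertical tick. The groups do not overlap for any of the 25 genes, which were chosen by their adjusted p on these same arrays, so this is no separate support. Gpr149, Adgrf1, Adgrg2 and Adgrl3 have the widest gaps.

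Adhesion receptors of subfamily F held neighbours that moved in opposite directions. Adgrf1 and Adgrf5 lie next to each other on mouse chromosome 17 in RefSeq. Adgrf1, a receptor for synaptamide, an amide of docosahexaenoic acid, read 6.18, 6.58 and 6.80 on PIM1 arrays and 2.73, 3.30 and 2.71 on EV arrays. The lowest PIM1 array lay well above the highest EV array, and the difference was 3.61 (standard error 0.21, adjusted p = 9.65e-06), a ratio of signals of 12.2. The EV mean of 2.91 lay below the EV array medians and was not shown to be above background, so this ratio is not a measured fold of RNA. Adgrf5, which limits surfactant in the lung, read 3.92, 3.82 and 4.02 on PIM1 arrays and 4.83, 5.09 and 4.94 on EV arrays. Its groups did not overlap either, and the difference was -1.03 (adjusted p = 2.97e-04). Adgrf4 and Adgrf2, which also adjoin each other on chromosome 17, were not called (0.04 and 0.29). Adgrf2 passed after quantile normalization (0.40, adjusted p = 0.0477) and cyclic loess (0.41, adjusted p = 0.0472).

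The promoter windows of the 4 adhesion genes with the largest differences, and of Adgrf5 as the neighbour of Adgrf1, are shown because these genes carry the changes of the class. Each window runs from 250 bases before to 50 bases after a RefSeq start on GRCm38.p6, 5′ to 3′ on the gene's strand. The table holds windows for 67 of the 88 members, and none was used for Gpr149. The windows are chr17:43270097-43270396 (plus strand) for Adgrf1, chr17:43360181-43360480 (plus strand) for the first of 2 starts of Adgrf5 and chrX:160390440-160390739 (plus strand) for Adgrg2. They are chr5:81020321-81020620 (plus strand) for the first of 3 starts of Adgrl3 and chr10:14544987-14545286 (minus strand) for Adgrg6. Capitals mark matches on either strand to 4 motifs, which were the AP-1 motif TGANTCA, the STAT motif TTCNNNGAA, the hypoxia core ACGTG and the 10-letter NF-kappaB consensus.
Adgrf1: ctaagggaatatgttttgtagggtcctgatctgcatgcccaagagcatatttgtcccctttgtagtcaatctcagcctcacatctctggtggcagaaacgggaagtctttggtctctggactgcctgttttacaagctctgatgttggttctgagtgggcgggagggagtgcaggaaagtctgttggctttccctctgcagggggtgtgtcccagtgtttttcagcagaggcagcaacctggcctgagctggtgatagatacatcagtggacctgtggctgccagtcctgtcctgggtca
Adgrf5: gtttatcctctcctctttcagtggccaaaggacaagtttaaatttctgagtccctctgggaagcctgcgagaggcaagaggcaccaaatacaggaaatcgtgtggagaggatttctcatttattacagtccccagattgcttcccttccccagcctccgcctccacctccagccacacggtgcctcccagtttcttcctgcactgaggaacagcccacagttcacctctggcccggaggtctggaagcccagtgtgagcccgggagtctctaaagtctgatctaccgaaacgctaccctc
Adgrg2: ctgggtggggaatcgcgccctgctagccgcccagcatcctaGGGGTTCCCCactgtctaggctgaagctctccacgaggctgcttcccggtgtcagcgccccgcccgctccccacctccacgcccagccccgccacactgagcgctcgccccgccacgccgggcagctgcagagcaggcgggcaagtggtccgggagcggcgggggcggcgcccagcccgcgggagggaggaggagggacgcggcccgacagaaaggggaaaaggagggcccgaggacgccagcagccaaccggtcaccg
Adgrl3: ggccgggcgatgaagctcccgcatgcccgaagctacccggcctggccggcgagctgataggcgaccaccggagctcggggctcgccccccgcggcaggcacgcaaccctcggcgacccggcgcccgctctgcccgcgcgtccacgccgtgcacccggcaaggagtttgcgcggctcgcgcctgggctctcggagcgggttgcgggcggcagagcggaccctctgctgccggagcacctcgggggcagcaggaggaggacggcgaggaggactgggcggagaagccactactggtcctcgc
Adgrg6: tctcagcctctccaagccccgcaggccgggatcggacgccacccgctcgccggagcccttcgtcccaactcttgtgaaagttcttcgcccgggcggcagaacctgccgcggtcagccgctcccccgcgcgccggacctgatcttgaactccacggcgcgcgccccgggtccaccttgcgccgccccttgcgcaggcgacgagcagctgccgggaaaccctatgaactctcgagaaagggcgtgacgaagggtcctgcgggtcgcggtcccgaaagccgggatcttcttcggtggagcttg
Of the 5 windows printed, Adgrg2's held 1 match, to the NF-kappaB consensus, and the others held 0. The window at the third start of Adgrl3 (chr5:81021343-81021642), not printed, held 1 match to the hypoxia core. The NF-kappaB consensus was matched in 4.51% of all 32851 windows. AP-1 was matched in 7.81%, STAT in 8.30% and the hypoxia core in 19.6% of all windows. No match says only that these letters are not in this window. The windows of Adgrf1 and Adgrf5 held 2 and 8 CG pairs, and those of Adgrg2, Adgrl3 and Adgrg6 held 30, 40 and 38, beside a median of 7 over all windows.

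Subfamily G was mixed as well. Adgrg2, a receptor of the efferent ducts and epididymis that is needed for fluid uptake and male fertility, read 7.74, 7.55 and 8.12 on PIM1 arrays and 5.87, 5.76 and 5.68 on EV arrays. The groups were far apart, and the rise was 2.03 (standard error 0.15, adjusted p = 4.01e-05), or 4.09-fold. Adgrg6, which Schwann cells need to form myelin, read 8.60, 8.54 and 8.82 on PIM1 arrays and 10.32, 10.16 and 10.18 on EV arrays. It was the brightest adhesion gene on EV arrays, and its difference was -1.57 (standard error 0.11, adjusted p = 3.11e-05), 2.96-fold lower in PIM1. Adgrg1, known from cortical development, averaged 3.69 ± 0.33 in PIM1 and 3.51 ± 0.46 in EV (SD, n = 3 arrays each), the widest spread of the adhesion class in both groups. Adgrg1 was not called (0.17, 95% interval -0.39 to 0.74). Its neighbour on chromosome 8, Adgrg3, a receptor of neutrophils, was called lower at a low signal, 2.33 in PIM1 and 2.77 in EV (-0.43, adjusted p = 0.0201). Adgrg4 and Adgrg7 were not called.

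Among the latrophilins, adhesion receptors that bind teneurins and FLRT proteins across cell contacts, only Adgrl3 of 4 members was called. Adgrl3 read 5.12, 5.17 and 4.95 on PIM1 arrays and 7.31, 7.35 and 7.39 on EV arrays. The groups did not overlap, and the difference was -2.27 (standard error 0.10, adjusted p = 2.87e-06), 4.81-fold lower in PIM1. A dimmer probe set of Adgrl3 averaged 2.19 in PIM1 and 2.69 in EV, and it was not called over all probe sets (-0.50, adjusted p = 0.0585). The mean of both probe sets differed by -1.38. Adgrl2, the brightest adhesion gene on PIM1 arrays, read 9.50, 9.40 and 9.70 there and 9.49, 9.49 and 9.50 on EV arrays. The Adgrl2 groups overlapped, with a difference of 0.04 (95% interval -0.21 to 0.29). Adgrl1 lay without overlap at 6.35 to 6.45 on PIM1 arrays and 6.63 to 6.71 on EV arrays. Its difference of -0.27 was not called (adjusted p = 0.0698), but it passed after quantile normalization (-0.41, adjusted p = 0.0125) and cyclic loess (-0.36, adjusted p = 0.0215). It also passed when only genes above the median gene were tested (adjusted p = 0.0221). After median centring Adgrl1 was not called and its difference was smaller (-0.17, limma adjusted p = 0.263), so the scalings differed. Adgrl4, which is known from endothelium, averaged 1.93 in PIM1 and 2.05 in EV and was not called. None of 10 endothelial markers was called by limma, and their summed log2 levels were 6.08 to 6.25 in PIM1 and 6.18 to 6.31 in EV.

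All 3 members of subfamily A were called, but the call of Adgra3 was lost in 10 of 14 alternative settings. Adgra1, known from brain, read 4.23, 3.97 and 3.71 on PIM1 arrays and 5.18, 5.26 and 5.27 on EV arrays. All PIM1 arrays lay below all EV arrays, and the difference was -1.26 (standard error 0.14, adjusted p = 3.26e-04). Adgra2, which brain blood vessels need to form, read 6.26, 6.30 and 6.28 on PIM1 arrays and 6.67, 6.69 and 6.82 on EV arrays, a difference of -0.45 (adjusted p = 0.00941). Its gene span overlaps that of Brf2, which rose by 0.48. Adgra3 averaged 7.65 ± 0.08 in PIM1 and 7.31 ± 0.03 in EV (SD, n = 3 arrays each), and its small rise was 0.34 (limma adjusted p = 0.0320), not called after quantile normalization (adjusted p = 0.0993) or cyclic loess (adjusted p = 0.0855). In the remaining subfamilies Adgrv1, a very large receptor of the inner ear and retina, was called lower at a low signal, 2.17 in PIM1 and 2.62 in EV (-0.45, adjusted p = 0.0143). The 3 members of subfamily B, the brain angiogenesis inhibitor genes, were not called (-0.33 to -0.03), nor was Adgrd1 (0.23). Adgrd1 passed after quantile normalization (0.37, adjusted p = 0.0446) and cyclic loess (0.37, adjusted p = 0.0421). Adgre1, which encodes the macrophage antigen F4/80, averaged 1.89 in PIM1 and 2.32 in EV and was not called (-0.43, adjusted p = 0.104). Without EV replicate 3, Adgre1 (-0.59, adjusted p = 0.0259) and Adgrb2 of subfamily B (-0.48, adjusted p = 0.0209) were called lower.

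Ligand genes of the adhesion receptors were measured for 19 of 21 listed genes, of which 2 were called higher and 2 lower (21.1% called, near the 27.0% over all genes). Tenm4, which encodes a teneurin bound by latrophilins, read 5.04, 5.11 and 4.86 on PIM1 arrays and 7.46, 7.33 and 7.45 on EV arrays. Its groups did not overlap, and its difference of -2.41 (adjusted p = 2.80e-06) stood beside the -2.27 of Adgrl3. Tenm1, Tenm2 and Tenm3 were not called (-0.23, -0.24 and 0.08), nor were Flrt1, Flrt2 and Flrt3 (1.07, -0.30 and 0.21). Tgm2 and Col3a1 encode a transglutaminase and a collagen chain that bind Adgrg1. Tgm2 averaged 8.39 ± 0.10 in PIM1 and 5.99 ± 0.14 in EV (SD, n = 3 arrays each), a rise of 2.40 (limma adjusted p = 3.36e-06). Col3a1, which is also on the fibroblast list, rose by 1.18 (adjusted p = 4.93e-05). Wnt7b, a ligand that signals through Adgra2 and Reck, averaged 4.15 ± 0.14 in PIM1 and 6.38 ± 0.16 in EV (SD, n = 3 arrays each). The Wnt7b difference was -2.22 (limma adjusted p = 8.36e-06), whereas Wnt7a and Reck were not called (-0.21 and -0.01). The flamingo cadherin genes Celsr1, Celsr2 and Celsr3, adhesion receptors under other symbols, were not called (0.32, -0.21 and -0.15).

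**Figure D4:**
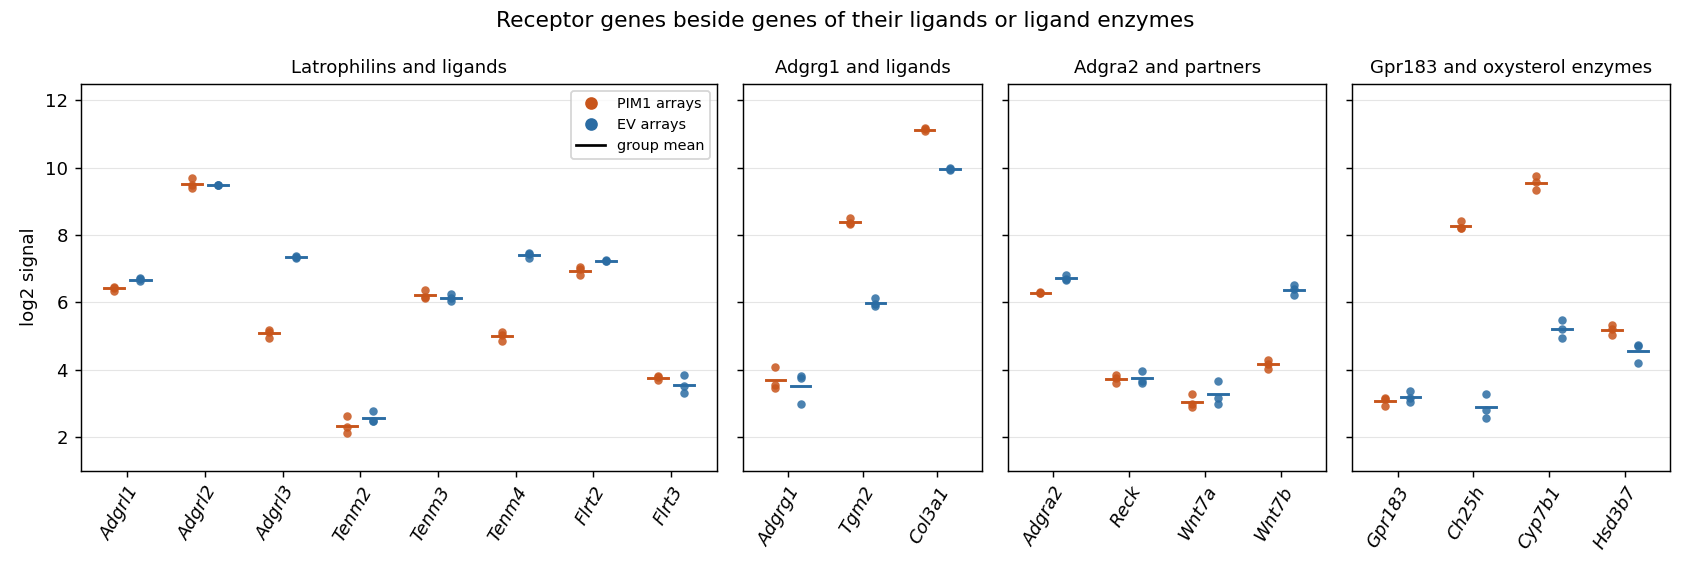
Log2 signal (vertical axis) of receptor genes and of genes for their ligands, partners or ligand enzymes on each of 3 PIM1 arrays and 3 EV arrays, with group means as horizontal lines. Adgrl3 and Tenm4 are both lower in PIM1, and Ch25h and Cyp7b1 are higher beside an overlapping Gpr183. Signals of different probe sets are not comparable as levels.

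Downstream of the receptors, 33 of 52 genes of G proteins and RGS proteins were not called, 17 were higher (32.7%) and 2 lower (3.85%), beside 16.1% higher and 10.9% lower over all genes. Of 16 alpha subunit genes 5 were higher and 0 lower (median difference 0.11). Gnao1 and Gnai1, of the inhibitory family, rose by 0.82 and 0.84, and Gna12 and Gna11 rose by 0.58 and 0.51. Gnai2 rose by 0.33 (limma adjusted p = 0.0490). The Gnai2 call was lost after quantile normalization, cyclic loess, a replicate block or a test of all probe sets (adjusted p = 0.0713 to 0.0945). It was also lost without any EV replicate or PIM1 replicate 1 or 2 (0.0778 to 0.174). The Gna11 call was lost without PIM1 replicate 1 (0.48, adjusted p = 0.0557) or PIM1 replicate 2 (0.48, adjusted p = 0.0560). Of 15 beta and gamma subunit genes 6 were higher and 1 lower. Gng12, Gng2 and Gnb5 rose by 0.84, 0.99 and 0.64, and Gng11 fell by 0.74. Of 21 RGS genes 6 were higher and 1 lower (median difference 0.05). RGS proteins speed the shut-off of G protein signals. Rgs5 read 5.98, 6.11 and 6.46 on PIM1 arrays and 3.52, 3.04 and 2.97 on EV arrays, a rise of 3.00 (adjusted p = 1.32e-05). Rgs16, Rgs2 and Rgs4 rose by 2.73, 2.08 and 1.76, and for these 3 genes as for Rgs5 the groups did not overlap. Of 9 receptor kinase and arrestin genes 0 were higher and 3 lower. The kinase gene Grk6 averaged 7.01 in PIM1 and 7.60 in EV, a difference of -0.59 (adjusted p = 0.0110). The visual arrestin genes Sag and Arr3 fell by 0.38 and 0.33 at low signals, and both calls were lost after quantile normalization (adjusted p = 0.0938 and 0.244). Sag was not called without EV replicate 2 or 3 or PIM1 replicate 2 or 3 (adjusted p = 0.0507 to 0.0847), nor Arr3 without EV replicate 1 or 2 or any PIM1 replicate (0.0909 to 0.164). Grk4 was not called (-0.16).

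Of 13 receptors that once bore a GPR number 2 were higher and 0 lower (15.4% called), and of 7 class C and LGR orphans 1 was higher and 1 lower (28.6%), beside 27.0% called over all genes. Lpar4, a lysophosphatidic acid receptor, read 5.91, 5.95 and 6.44 on PIM1 arrays and 4.35, 4.93 and 5.15 on EV arrays, a rise of 1.29 (adjusted p = 0.00361). Ffar4, a receptor for long-chain fatty acids, rose by 0.69 (adjusted p = 8.39e-04), and Prokr1 and Gper1 were not called (0.60 and -0.39). In the class C and LGR list Gprc5a, which retinoic acid induces, fell by 1.46 (adjusted p = 2.77e-05) and Gprc5b rose by 0.67 (adjusted p = 0.00238). Lgr5 and Lgr6 were not called (-0.35 and -0.44).

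Of the 25 called members 16 kept their call in each alternative setting that tested them at the same threshold. The other 9 did not, 6 orphan and 3 adhesion genes. Adgra3 lost its call without any 1 of the 6 arrays (adjusted p = 0.0547 to 0.0817). Gpr139, a receptor for aromatic amino acids in the brain, averaged 3.21 in PIM1 and 2.85 in EV (0.36, adjusted p = 0.0370). It lost its call without EV replicate 1 or 3 or any PIM1 replicate (0.0839 to 0.100). Gpr63 averaged 3.32 in PIM1 and 3.68 in EV (-0.36, adjusted p = 0.0305), and it was not called without EV replicate 1 or any PIM1 replicate (0.0749 to 0.0874). Gpr17, known from oligodendrocyte precursors, averaged 3.18 in PIM1 and 3.67 in EV (-0.50, adjusted p = 0.0272), whereas a probe set shared by Gpr17 and Lims2 had a difference of 0.02 and was not called (adjusted p = 0.947). Gpr17 was not called without EV replicate 1 or 3 or PIM1 replicate 1 or 3 (0.0622 to 0.0900). Gpr182, an endothelial scavenger of chemokines, averaged 3.74 in PIM1 and 4.20 in EV (-0.46, adjusted p = 0.0247). It was not called without EV replicate 1 or PIM1 replicate 1 or 3 (0.0644 to 0.0782). Adgrg3 was not called without EV replicate 1 or 3 or PIM1 replicate 1 or 3 (0.0507 to 0.0668). Adgrv1 lost its call without PIM1 replicate 2 (adjusted p = 0.0579) and Gpr65 without PIM1 replicate 1 (adjusted p = 0.0528). Gpr171 lost it only with the mean of probe sets. Scaling also ended calls. Adgra3, Adgrg3, Adgrv1, Gpr63, Gpr65 and Gpr17 were not called after quantile normalization (adjusted p = 0.0589 to 0.0993) or cyclic loess (0.0514 to 0.0855). Adgrg3, Gpr63, Gpr182 and Gpr17 were not called after median centring (0.0534 to 0.0902). With trend and robust variance Gpr139 (0.0747) and Gpr63 (0.0702) were not called. In a test of all probe sets Adgra3, Gpr139, Gpr63, Gpr182 and Gpr17 were not called (0.0572 to 0.0767). Conversely, 10 members that were not called in the main comparison passed in some alternative setting. Gpr31b (-0.46, adjusted p = 0.0268) and Gpr83 (-0.59, adjusted p = 0.0182) were called lower without EV replicate 2. Gpr101 was called lower without EV replicate 3 (-0.39, adjusted p = 0.0483) and Gpr161 without PIM1 replicate 3 (-0.54, adjusted p = 0.0196). The others were Adgrf2, Adgrd1, Adgrl1, Adgrb2, Adgre1 and Gpr180.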

How the data were processed

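Total RNA from 3 PIM1 and 3 EV samples was labelled with the GeneChip WT PLUS kit, per the labels' protocols. The deposited values were taken as log2 signals, 1 per probe set and array, from their range. The sources used here do not give the log base, background correction, summarization or normalization. The submitters' processing notes name Affymetrix Expression Console. Nothing was rescaled for the reported values. The number of arrays limits the precision.

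Of 41345 probe sets 23521 had 1 symbol, 1814 several and 16010 none. Of those with 1 symbol 23328 matched RefSeq (GRCm38.p6) by Entrez identifier, and 0 symbols needed updating. The brightest probe set by mean over 6 arrays stood for a gene. The comparison used lmFit and eBayes of limma 3.58.1 (R 4.3.3) with 1 term for group, two-sided tests and Benjamini-Hochberg adjustment over 22180 genes. Marker sums were taken on the linear scale and given as log2. Gene spans and neighbours came from RefSeq, without strand.

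Members and lists were chosen with earlier results of these data known. Named members are those called with a difference of at least 1, the 10 further members with the smallest adjusted p, the 6 brightest of each class, those with discordant probe sets, those whose call was lost in an alternative, and adjacent relatives. Of each list the 4 genes with the smallest p are named. Other members, other ligand genes and the markers are named to complete their families and were chosen after their values were seen. Gnai2 is named because its call was often lost. On simulated data with the spread of the 22180 genes, 67, 67 and 66 genes were changed by 0.5, 1 and 2. Of these 14.9%, 67.2% and 97.0% were recovered, with 8 false among 127 calls. Far more genes, 5995, were called in the real comparison. The adjustment depends on how many genes change, so these shares do not measure recovery in the real comparison. Same-numbered PIM1 and EV arrays did not deviate together (correlations of 0.056, -0.031 and 0.009), so no pairing was used.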

Additional observations from a re-analysis of the deposited data

Results flagged for a closer look

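Probe sets shared by a receptor and another gene were left out of the gene comparison, and 2 of them were called higher over all probe sets. A probe set annotated to Gpr39, a zinc receptor, and to Lypd1 read 5.68, 5.87 and 5.89 on PIM1 arrays and 3.96, 3.77 and 3.90 on EV arrays, a difference of 1.938 (limma adjusted p = 1.32e-04 over all probe sets). Another probe set of the same 2 genes differed by 0.36 and was not called (adjusted p = 0.132). A probe set annotated to Gpr137 and Bad read 5.37, 5.33 and 5.26 on PIM1 arrays and 4.83, 4.62 and 4.70 on EV arrays, a difference of 0.605 (adjusted p = 0.0109). Its call was lost without PIM1 replicate 1 (0.58, adjusted p = 0.0543) or PIM1 replicate 2 (0.60, adjusted p = 0.0528). The signal cannot be assigned to either gene of a shared probe set.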

How the results depend on the processing

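In the main comparison 8 orphan members were called higher and 7 lower, and 3 adhesion members higher and 7 lower. The orphan count of lower calls was 4 after quantile normalization, median centring, cyclic loess or a test of all probe sets, and 3 at adjusted p under 0.01. Over all genes 3409 of 22180 were called at that threshold, and 6748 of 41345 probe sets in the test of all probe sets. When only the brighter genes were tested, which keeps 16 orphan members, 5 were higher and 2 lower. Of all 11090 genes tested there, 5906 were called. Without each array in turn the orphan lower count ranged from 3 to 9, the higher count from 7 to 8, the adhesion lower count from 6 to 8, and the adhesion higher count was 2. The other adhesion counts stayed within 1.5 times. Over all genes 4167 to 5369 were called when each array was left out in turn. With the replicate number as a block, 7 orphan members were higher and 5 lower, and 2 adhesion members higher and 6 lower. Over all genes 5321 were called with this block. Adgra3, Adgrg3, Gpr139, Gpr63 and Gpr17 were not called with it (adjusted p = 0.0502 to 0.0734). Genes of the partner lists were called higher in 25 and lower in 8 of 106 cases, beside 16.1% higher and 10.9% lower over all genes. At adjusted p under 0.01, 19 partner genes were higher and 5 lower. Of the 88 members, 13 changed sign after median centring, 0 of them called, and their differences lay between -0.098 and -0.001 (Gpr55 and Gpr132 among them). Of the single genes followed through each setting, signs turned for Adgrl2 (-0.004 after quantile normalization, and from -0.045 without PIM1 replicate 3 to 0.105 without PIM1 replicate 2), Gpr137b (from -0.282 without EV replicate 3 to 0.045 without EV replicate 1) and Celsr3 (from -0.324 without EV replicate 2 to 0.085 without EV replicate 1), none of them called by limma. The settings for partner genes and shared probe sets were chosen after seeing the data. The cause of these changes was not tested, except that fewer genes are tested among the brighter ones.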

Other observations

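Shared probe sets also held falls. The probe set annotated to Adgre5, an adhesion receptor of leukocytes and some tumours, and to Ddx39a read 6.71, 6.61 and 6.68 on PIM1 arrays and 8.02, 8.18 and 8.18 on EV arrays, a difference of -1.46 (limma adjusted p = 2.81e-04 over all probe sets). The groups did not overlap. Cd55 and Thy1, which encode surface proteins that bind Adgre5, were not called (0.12 and -0.02). A probe set of Gpr146 and D830046C22Rik differed by -0.65 (adjusted p = 0.0208), a call lost without any EV replicate or PIM1 replicate 2 or 3 (0.0508 to 0.0782), whereas the Gpr146 probe set of its own differed by 0.03 and was not called. Probe sets that Gpr3, Gpr17, Gpr21, Gpr89 and Gpr141 share with other genes were not called.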
